A study of Mus musculus with 6 samples.

Results

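The genes described here are 10 markers and signals of the blood vessel wall, measured by RNA-seq in mouse inguinal white adipose tissue (IngWAT) with and without the histone deacetylase Hdac3 in fat. They are the junction proteins Pecam1 and Cdh5, the VEGF receptors Kdr and Flt1, the angiopoietin receptor Tek and its partner Tie1, the capillary protein Gpihbp1, and the ligands Vegfa, Vegfb and Vegfc. They were chosen by name, as endothelial markers and VEGF ligands and receptors, and are 10 of the 46517 genes in the deposited files. The 3 floxed samples came from Hdac3 floxed mice on a C57Bl6 background. The 3 H3atKO samples came from the same floxed line crossed to the Cre strain B6:FVB-Tg(Adipoq-cre)1Evdr/J, where the Adipoq promoter drives the recombinase. All mice were 5 to 9 months old on chow diet in standard housing, and each sample was a pool of RNA from 2 or 3 mice. The Adipoq promoter is active in adipocytes, so the endothelial cells of both groups were not the targeted cells.

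White fat is threaded with capillaries, whose endothelial cells hold together through PECAM1 and VE-cadherin (the product of Cdh5). Adipocytes secrete VEGF-A, which binds KDR, the receptor that carries most of the growth signal, and FLT1, which binds VEGF-A tightly and acts largely as a trap. TEK is the receptor of the angiopoietins, which keep vessels quiescent or destabilize them, and TIE1 modulates it. GPIHBP1 carries lipoprotein lipase across the capillary wall to the surface where triglycerides are hydrolysed.

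Hdac3 itself fell by 1.83 on the log2 scale (limma voom, adjusted p = 0.0213), from 65.8 to 80.3 cpm in floxed to 12.9 to 27.4 cpm in H3atKO samples, where cpm are read counts relative to the TMM-scaled library size. Samples had between 23865507 and 35200685 reads counted on genes, and the lowest count of any of the 10 genes was 42, for Vegfc in H3atKO replicate 3. Genes of the mitochondrial genome took 6.92% to 12.9% of counts in floxed and 26.9% to 35.3% in H3atKO samples, and TMM factors were 1.30 to 1.37 and 0.663 to 0.921. The samples also differed in how expression followed the GC content of the transcript. Across 14922 genes tested that had a GC content, Spearman's rho between GC content and how far a sample lay from each gene's average was 0.800, 0.623 and 0.0969 for floxed and -0.433, -0.504 and -0.711 for H3atKO samples (replicates 1, 2 and 3), so that it ordered the genotypes completely. Genotype and this GC trend therefore cannot be told apart. Values after subtracting the trend, or the loss of a call, are given beside the results whose call or direction it changes. Adipocyte markers were present in all samples, with a summed level of 10 genes of 5708 to 26761 cpm in floxed and 3190 to 6090 cpm in H3atKO.

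The start regions of the 4 receptor genes are shown to compare the sequences from which Kdr and Flt1, which were not called in any fit, and Tek and Tie1, which had lower means, are transcribed. Each runs from 250 bases before to 50 bases after the start in RefSeq (GRCm38.p6), 5′ to 3′ on the gene's strand, at chr5:75978406-75978705 (Kdr, minus strand), chr5:147725962-147726261 (Flt1, minus strand), chr4:94739039-94739338 (Tek, plus strand) and chr4:118489800-118490099 (Tie1, minus strand). Capitals mark AGGAAG or its reverse complement CTTCCT, a form of the core bound by ETS family factors, which are prominent in endothelial cells.
Kdr: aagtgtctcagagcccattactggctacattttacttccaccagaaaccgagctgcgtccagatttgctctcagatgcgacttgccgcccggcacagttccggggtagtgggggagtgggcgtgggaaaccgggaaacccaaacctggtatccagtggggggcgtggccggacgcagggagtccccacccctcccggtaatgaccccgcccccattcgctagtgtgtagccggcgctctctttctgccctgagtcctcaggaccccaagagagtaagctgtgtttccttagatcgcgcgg
Flt1: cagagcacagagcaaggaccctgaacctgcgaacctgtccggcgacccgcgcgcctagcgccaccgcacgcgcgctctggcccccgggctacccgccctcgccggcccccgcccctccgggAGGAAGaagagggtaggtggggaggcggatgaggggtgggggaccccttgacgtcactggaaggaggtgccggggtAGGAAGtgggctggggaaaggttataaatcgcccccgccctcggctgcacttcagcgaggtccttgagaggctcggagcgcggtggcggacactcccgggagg
Tek: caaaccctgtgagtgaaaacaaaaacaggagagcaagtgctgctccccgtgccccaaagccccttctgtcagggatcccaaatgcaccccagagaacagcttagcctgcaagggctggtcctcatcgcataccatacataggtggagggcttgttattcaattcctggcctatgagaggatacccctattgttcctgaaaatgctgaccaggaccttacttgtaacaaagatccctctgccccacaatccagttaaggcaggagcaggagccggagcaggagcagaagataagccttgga
Tie1: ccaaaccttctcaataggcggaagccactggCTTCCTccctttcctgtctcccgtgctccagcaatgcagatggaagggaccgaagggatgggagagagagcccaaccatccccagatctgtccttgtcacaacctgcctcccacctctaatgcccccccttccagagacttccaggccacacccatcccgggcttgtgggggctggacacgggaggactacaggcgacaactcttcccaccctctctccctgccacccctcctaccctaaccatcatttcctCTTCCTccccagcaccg
These letters occur 2 times in Flt1 and 2 times in Tie1, and 0 times in Kdr and Tek, while 35.4% of all 32851 RefSeq windows of this length hold at least 1 copy. The GC box GGGCGG, searched on both strands, occurs 3 times in Flt1 and 2 times in Kdr and 0 times in Tek and Tie1, against 35.7% of all windows with at least 1. The GC content of the windows was 60.7% for Kdr, 70.7% for Flt1, 52% for Tek and 60.3% for Tie1. A match describes letters in the window and says nothing of binding. Of the 10 genes, 7 had an entry in the table used.

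In H3atKO IngWAT, 3 of the 10 genes fell and 0 rose at an adjusted p under 0.05, against 7.07% of all 14967 genes tested called lower and 9.42% called higher. The 3 were Pecam1, Cdh5 and Gpihbp1. All 10 genes passed the filter of at least 1 cpm in at least 1 sample. The median log2 fold change was -1.10 over the 10 genes and -0.09 over all genes tested. In 6 of the 10 genes every H3atKO sample lay below every floxed sample, as in 28.6% of all genes tested, and in 0 of the 10 did every H3atKO sample lie above, as in 23.1% of all genes. In bulk tissue, fewer cells of a type and less RNA per cell cannot be told apart.

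**Figure D1:**
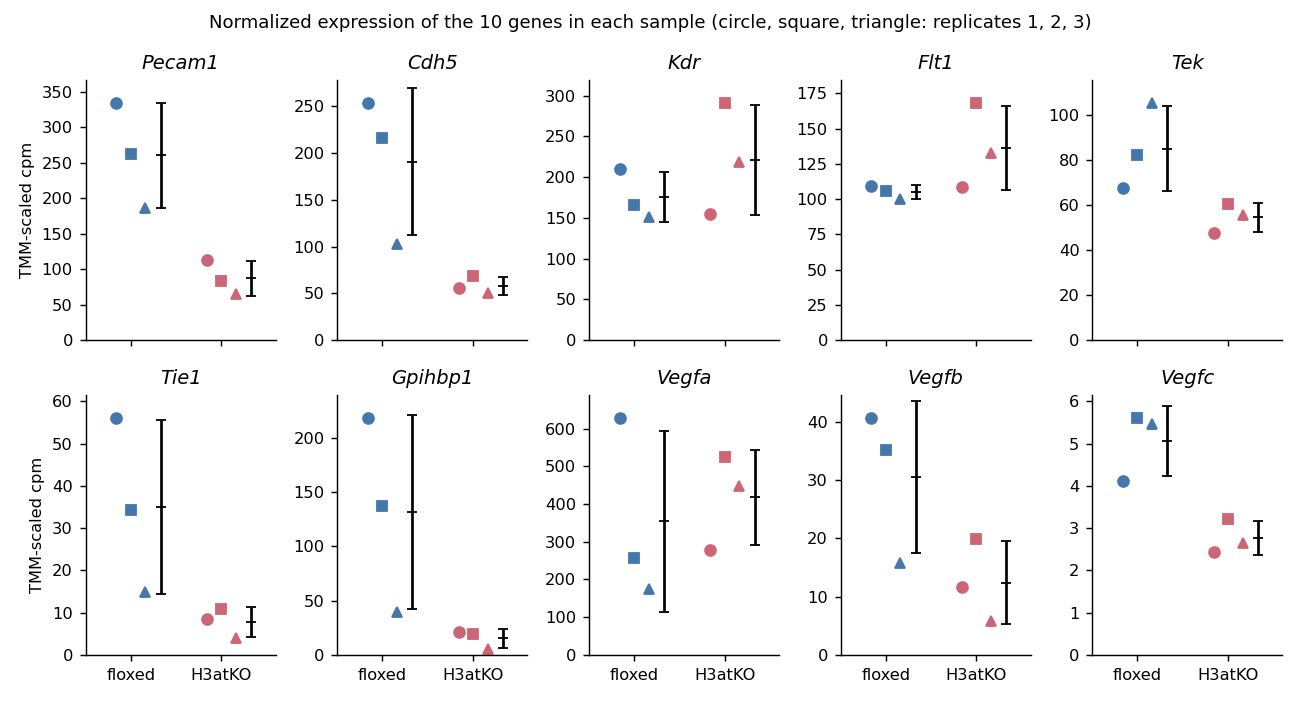
Normalized expression of the 10 genes in each sample, in cpm of the TMM-scaled library, with a separate vertical axis from 0 for each gene. Points are samples (circle, square and triangle for replicates 1, 2 and 3), and the black bars show the mean and SD of the 3 samples; Pecam1, Cdh5, Tek, Tie1, Gpihbp1 and Vegfc have every H3atKO sample below every floxed sample, while Kdr, Flt1, Vegfa and Vegfb overlap.

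Both junction genes were lower in H3atKO, by about the same factor. Pecam1 (chr11:106654217-106750628, minus strand, GRCm38) encodes the platelet endothelial adhesion molecule found on nearly all endothelial cells. Its level was 334, 262 and 186 cpm in the floxed and 114, 82.8 and 65.4 cpm in the H3atKO samples, each in the order of replicates 1, 2 and 3, as in all values that follow. The groups did not overlap, and the decrease was 2.97-fold (log2 fold change -1.57 ± 0.32 SE, 95% confidence interval -2.31 to -0.83, adjusted p = 0.0276). Cdh5 (chr8:104101625-104144511, plus strand) encodes VE-cadherin, the adhesive protein of endothelial junctions. It had 253, 217 and 102 cpm in floxed and 55.6, 68.9 and 49.9 cpm in H3atKO samples. Floxed replicate 3 was the lowest floxed sample for both genes, and it still exceeded every H3atKO sample. The decrease of Cdh5 was 3.08-fold (log2 fold change -1.62 ± 0.38 SE, 95% confidence interval -2.50 to -0.74, adjusted p = 0.0351). With the GC trend subtracted, Pecam1 kept its call (log2 fold change -1.31, adjusted p = 0.0284), and Cdh5 did not (log2 fold change -0.93, adjusted p = 0.0712), although it was called again when the replicate number was also a block (adjusted p = 0.0435). Pecam1 was called in all 13 fits that used the 6 samples, and Cdh5 in 11 of them.

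The VEGF receptors were not called, and their mean levels were higher in H3atKO except under library sizes alone, which gave log2 fold changes of -0.55 for Kdr and -0.49 for Flt1 beside a median of -0.94 over all genes. Kdr (chr5:75932827-75978458, minus strand), which encodes VEGF receptor 2, had 210, 166 and 151 cpm in floxed and 155, 291 and 218 cpm in H3atKO samples. H3atKO replicates 2 and 3 were the highest of the 6 samples, and H3atKO replicate 1 lay within the floxed range. The log2 fold change was 0.30 ± 0.29 SE (95% confidence interval -0.39 to 0.99, adjusted p = 0.443). Flt1 (chr5:147561604-147726011, minus strand), which encodes VEGF receptor 1, had 109, 106 and 99.8 cpm in floxed and 108, 168 and 133 cpm in H3atKO samples. The 3 floxed values lay close together, and again only H3atKO replicate 1 fell among them. Its log2 fold change was 0.36 ± 0.24 SE (95% confidence interval -0.20 to 0.92, adjusted p = 0.275). The intervals of both receptors lie above -0.4, and those of Pecam1 and Cdh5 end below -0.7. Neither receptor was called in any of the 13 fits.

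Tek and Tie1, the angiopoietin receptor pair, had lower means that did not pass the test. Tek (chr4:94739289-94874976, plus strand) had 67.7, 82.4 and 105 cpm in floxed and 47.6, 60.5 and 55.8 cpm in H3atKO samples. The groups did not overlap, but floxed replicate 3 was here the highest sample, unlike in Pecam1 and Cdh5. The log2 fold change was -0.63 ± 0.26 SE (adjusted p = 0.104). It was called with the replicate block (adjusted p = 0.0321) and with the GC trend subtracted (log2 fold change -0.88, adjusted p = 0.0382). Tie1 (chr4:118471191-118490061, minus strand) had 56.0, 34.2 and 14.9 cpm in floxed and 8.40, 10.9 and 3.92 cpm in H3atKO samples. The floxed samples alone spanned more than a 3-fold range, and their lowest was close to the highest H3atKO sample. The log2 fold change of Tie1 was -2.08 ± 0.66 SE (adjusted p = 0.0620), with a call under the replicate block (adjusted p = 0.00378) while subtraction of the GC trend left -0.24 (adjusted p = 0.538). The longest transcript of Tie1 has a GC content of 57.6%, and that of Tek 47.1%.

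Gpihbp1 (chr15:75596628-75599481, plus strand) showed the largest decrease of the 10 genes. It had 218, 137 and 39.4 cpm in floxed and 20.8, 19.4 and 5.31 cpm in H3atKO samples. The groups did not overlap, and the spread was wide in both, with replicate 3 lowest in each. The decrease was 7.81-fold (log2 fold change -2.97 ± 0.81 SE, 95% confidence interval -4.87 to -1.06, adjusted p = 0.0480). The call was lost on subtracting the GC trend (-2.01, adjusted p = 0.0810) and returned with the replicate block added to it (-2.07, adjusted p = 0.0103). Gpihbp1 was called in 10 of the 13 fits.

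Genes that act with Gpihbp1 in capillary lipid handling did not all move its way. Lpl, the lipase that GPIHBP1 carries, had 7838, 9428 and 10440 cpm in floxed and 21063, 50718 and 47767 cpm in H3atKO samples. It was thus higher in every H3atKO sample, by 4.06-fold (log2 fold change 2.02 ± 0.39 SE, adjusted p = 0.0253, and 1.30 with an adjusted p of 0.0533 after the GC trend was subtracted). Angptl4, an inhibitor of that lipase, had 739, 555 and 176 cpm in floxed and 110, 120 and 36.3 cpm in H3atKO samples, and fell by 2.39 on the log2 scale (adjusted p = 0.0461, and 0.0730 after the GC trend was subtracted). Lmf1, which matures the lipase in the cell that makes it, had 13.5, 6.64 and 2.38 cpm in floxed and 0.865, 1.38 and 0.506 cpm in H3atKO samples (log2 fold change -2.77 ± 0.92 SE, adjusted p = 0.0677, and 0.00578 with the replicate block). Of the 9 genes of this list, 1 was called higher and 1 lower, against 9.42% and 7.07% of all genes, with a median log2 fold change of 0.05. The replicate block called 2 higher and 2 lower, against 24.8% and 28.7% of all genes, and subtraction of the GC trend left 0 called, against 5.53% and 3.05%.

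Among the ligands, Vegfa (chr17:46016993-46032369, minus strand) had the highest level of the 10 genes per kilobase of exon. In cpm it had 628, 258 and 176 cpm in floxed and 279, 526 and 449 cpm in H3atKO samples. Floxed replicate 1 was the highest of the 6, so that the groups overlapped in full. The log2 fold change was 0.41 ± 0.49 SE (95% confidence interval -0.72 to 1.54, adjusted p = 0.530), an interval that leaves changes of more than 2-fold upward unresolved. Library sizes alone turned it to -0.45. In same-numbered samples, Vegfa was lower in H3atKO replicate 1 by 1.17 on the log2 scale and higher in replicates 2 and 3, by 1.03 and 1.35.

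Vegfb (chr19:6982473-6987651, minus strand), a ligand of FLT1, had 40.6, 35.3 and 15.8 cpm in floxed and 11.6, 19.9 and 5.75 cpm in H3atKO samples. The groups overlapped through floxed replicate 3 and H3atKO replicate 2. Its log2 fold change was -1.33 ± 0.56 SE (adjusted p = 0.108) and -1.35 under the replicate block (adjusted p = 0.00900). The direction turned once the GC trend was subtracted, to 1.31 (adjusted p = 0.120), and with block and GC correction together it was called higher (1.41, adjusted p = 0.0216). No direction can therefore be given for Vegfb, whose longest transcript has the highest GC content of the 10, 62.6%. Vegfc (chr8:54077606-54187096, plus strand), a ligand of the lymphatic receptor FLT4, had the lowest level per kilobase. In cpm it had 4.11, 5.60 and 5.47 cpm in floxed and 2.43, 3.21 and 2.66 cpm in H3atKO samples. The groups did not overlap. The log2 fold change of Vegfc was -0.86 ± 0.38 SE (adjusted p = 0.120), with calls under the replicate block (adjusted p = 0.0428) and with the GC trend subtracted (log2 fold change -1.40, adjusted p = 0.0325). Its longest transcript has the lowest GC content of the 10, 44.9%.

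**Figure D2:**
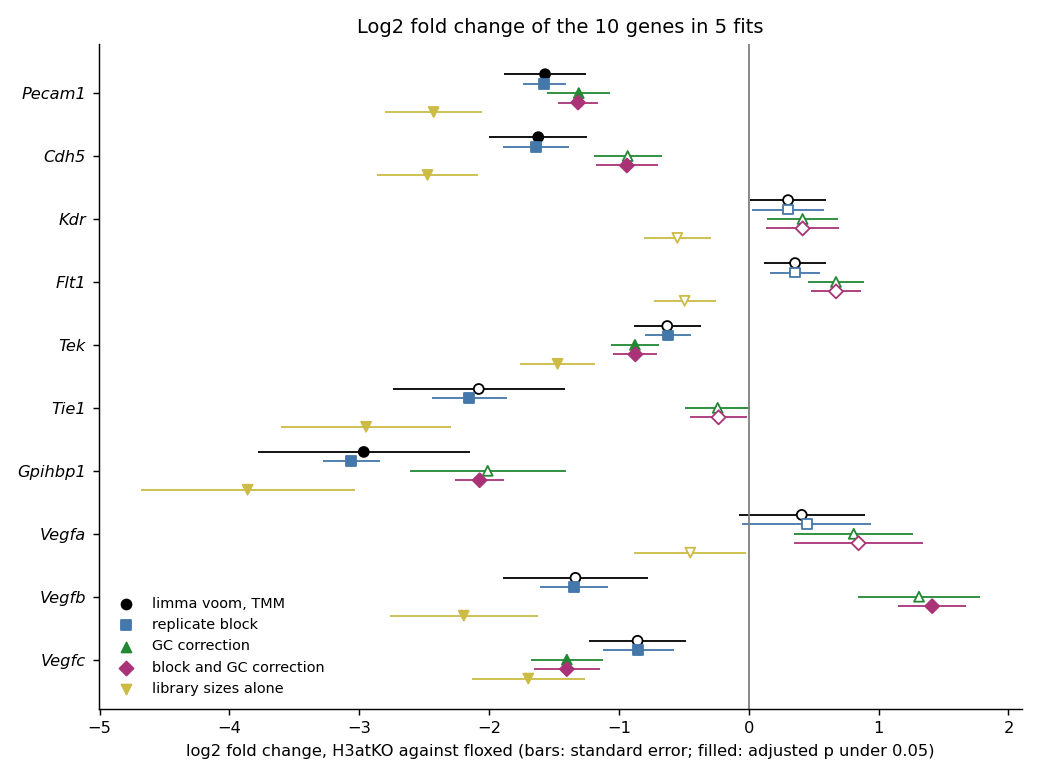
Log2 fold change of each of the 10 genes, H3atKO against floxed, in 5 fits: limma voom with TMM, the same with the replicate number as a block, with the GC trend subtracted, with both, and scaled by library size instead of TMM. Horizontal bars are standard errors and filled symbols have an adjusted p under 0.05; Pecam1 is filled and negative in all 5, Kdr, Flt1 and Vegfa are open in all 5, and Vegfb changes sign with the GC correction.

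The number of these genes called depended on whether same-numbered samples were treated as pairs. With the replicate block, 7 of the 10 were called lower (all but Kdr, Flt1 and Vegfa), against 28.7% of all genes, and 0 higher, against 24.8%. Subtraction of the GC trend left 3 called lower (Pecam1, Tek and Vegfc), against 3.05% of all genes, and 0 higher, against 5.53%. Only 1 of those 3, Pecam1, was also called in the reported fit, which has neither the correction nor the block. Under block and GC correction together, 5 were called lower (Pecam1, Cdh5, Tek, Gpihbp1 and Vegfc), against 9.7%, and 1 higher (Vegfb), against 13%. The quasi-likelihood test of edgeR and DESeq2 each called 4 lower (the 3 and Tie1), against 18.4% and 23.2% of all genes, and 0 higher, against 12.8% and 19.6%. Library sizes alone and sample quality weights each called 7 lower, against 37.9% and 29.7%, and 0 higher, against 2.04% and 26.7%. Without floxed replicate 3, 5 genes were called lower, and without any other single sample 0 were, where 25.9% and at most 0.93% of all genes tested were called lower.

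Per kilobase of exon, the order of the levels differed between the genotypes. In floxed samples the mean levels, in cpm per kilobase of the union of exons, were 82.6 for Vegfa, 51.5 for Gpihbp1, 45.4 for Cdh5 and 41.9 for Pecam1. These were the 4 highest, and the ranges of neighbours overlapped within the 4. Kdr at 19.4, Vegfb at 19.1 and Tek at 18.1 formed the next rank with overlapping ranges, all below the range of Pecam1. They were not apart from the range of Gpihbp1, which ran from 15.4 to 85.4. The lowest floxed value of Cdh5, 24.4, also lay below the highest of Vegfb, 25.3. Flt1 at 7.77 and Tie1 at 7.13 overlapped each other, and Vegfc at 2.07 lay below both. In H3atKO samples Vegfa remained highest, at 97.6, above the range of every other gene. Kdr was second at 24.5, followed by Pecam1 at 14.0, Cdh5 at 13.8, Tek at 11.6 and Flt1 at 10.1, each overlapping its neighbour. Vegfb stood seventh at 7.74, Gpihbp1 eighth at 5.94, where it had been second in floxed samples, and Tie1 and Vegfc were lowest at 1.57 and 1.13. Divided by the longest transcript instead, Pecam1 exceeded Cdh5 in floxed samples and Flt1 exceeded Cdh5 and Tek in H3atKO samples, and the order was otherwise as before.

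Because total RNA of a vessel cell type is not known in bulk tissue, the other 8 genes were also set against Pecam1 and Cdh5 in the same sample, as log2 cpm minus the mean log2 cpm of those 2 genes. This ratio does not depend on the scaling of libraries. It is not independent of the values above, since Pecam1 and Cdh5 were lower in H3atKO, with log2 fold changes of -1.57 and -1.62. The median over all genes tested was -0.09, so a gene at that median would also stand higher on this ratio. The share of all genes whose ratio separates the groups was not computed. The relative level of Kdr was -0.47, -0.52 and 0.13 in floxed and 0.96, 1.94 and 1.93 in H3atKO samples, a difference of 1.90 or 3.74-fold. Flt1 stood at -1.41, -1.17 and -0.47 in floxed and 0.45, 1.15 and 1.22 in H3atKO samples, a difference of 1.96 or 3.88-fold. Vegfa stood at 1.11, 0.11 and 0.35 in floxed and 1.81, 2.80 and 2.97 in H3atKO samples, a difference of 2.01 or 4.01-fold. In all 3 genes every H3atKO sample was above every floxed sample, which gave p = 0.1 in a two-sided exact permutation test, the lowest value possible at this sample size. After subtraction of the GC trend the differences were 1.54, 1.79 and 1.93, and the groups stayed apart. GC contents of the longest transcripts were 49.4% for Kdr, 50.5% for Flt1 and 50.9% for Vegfa, beside 50.2% for Pecam1 and 52.2% for Cdh5.

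Gpihbp1 was the only one of the 8 whose relative level was lower in every H3atKO sample. It stood at -0.41, -0.80 and -1.81 in floxed and -1.93, -1.96 and -3.42 in H3atKO samples, a difference of -1.43 (p = 0.1, two-sided exact permutation test), and with the GC trend subtracted the difference was -0.94 and the groups overlapped, as they did against Pecam1 alone. For Tek the difference was 0.98 (p = 0.2, the same exact test), for Vegfc 0.74 (p = 0.2), for Vegfb 0.24 (p = 0.8) and for Tie1 -0.50 (p = 0.3), with overlapping groups in each. With the GC trend subtracted, the differences were 0.25 for Tek, -0.29 for Vegfc, 2.44 for Vegfb and 0.88 for Tie1. Vegfb and Tie1 were then higher in every H3atKO sample, so the directions of Vegfc and Tie1 turned. Without that subtraction, Tek was higher in H3atKO by 1.36, 1.21 and 0.36 within same-numbered pairs 1, 2 and 3, and Vegfc by 1.12, 0.86 and 0.25. Thus 5 of the 8 genes, with Kdr, Flt1 and Vegfa, had a higher relative level in all 3 pairs.

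**Figure D3:**
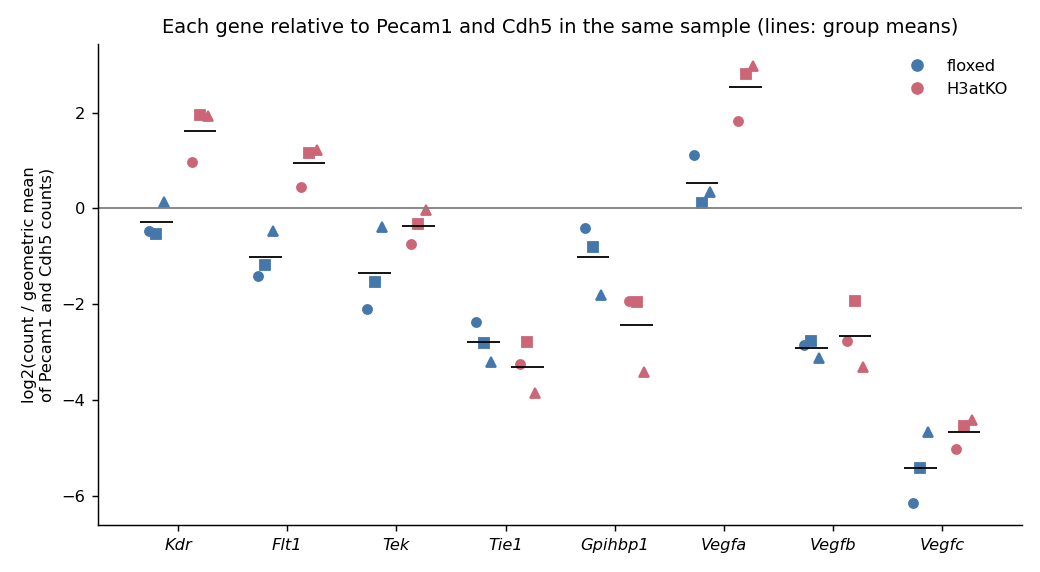
Log2 level of 8 genes relative to the mean log2 level of Pecam1 and Cdh5 in the same sample. Points are samples (circle, square and triangle for replicates 1, 2 and 3) and lines are group means; Kdr, Flt1 and Vegfa lie higher in all 3 H3atKO samples, Gpihbp1 lies lower, and the other 4 genes overlap.

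A list of 24 other endothelial genes was described in the same way. Of these, 6 were called lower (Esam, Egfl7, Sox7, Vwf, Ecscr and Plvap) and 0 higher, against 7.07% and 9.42% of all genes, and the median log2 fold change was -1.65. With the replicate block, 14 were called lower and 3 higher, against 28.7% and 24.8% of all genes. Vwf, the clotting factor stored in endothelial granules, had 51.2, 38.4 and 21.2 cpm in floxed and 4.12, 3.82 and 1.26 cpm in H3atKO samples, and fell by 3.61 on the log2 scale (adjusted p = 0.0206). Plvap, which forms the diaphragms of fenestrae and caveolae, fell by 2.89 (adjusted p = 0.0408). Egfl7, a secreted factor of the vessel wall, fell by 2.55 (adjusted p = 0.0437), and Ecscr, a surface protein of endothelial cells, fell by 2.07 (adjusted p = 0.0374). After subtraction of the GC trend, Vwf (log2 fold change -1.99, adjusted p = 0.0175) and Ecscr (-1.66, adjusted p = 0.0450) kept their calls. Plvap (-0.53), Egfl7 (-0.82), Esam and Sox7 lost theirs. This left 2 of the 24 called lower and 0 higher, against 3.05% and 5.53% of all genes, and the median of the list was -0.53.

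Fold change followed GC content closely within the endothelial genes. Over the 7 endothelial genes named first and the 24 others, with GC contents of 40.7% to 63.6%, Spearman's rho between GC content and log2 fold change was -0.83, beside -0.71 over 14922 genes tested. Genes are not independent replicates, and the points share the same 6 libraries. Of the 21 endothelial genes with a GC content of at least 50%, 9 were called lower, against 7.07% of all genes. With the replicate block, 18 of the 21 were called lower and 0 higher, against 28.7% and 24.8% of all genes. In these 21, 19 log2 fold changes were negative, against 7855 of all 14967 genes tested, with a median of -2.06. Of the 10 under 50%, 0 were called lower and 3 were negative, with a median of 0.21. The replicate block called 3 of these 10 higher and 1 lower, against 24.8% and 28.7% of all genes. The group under 50% holds Emcn, Fli1, Adgrl4, Cd93, S1pr1, Myct1, Clec14a, Ptprb, Tek and Kdr. After the GC trend was subtracted, rho was -0.16, and the medians were -0.76 and -0.33. Then 3 and 1 genes were called lower, against 3.05% of all genes. With the block as well, 9 of the 21 were called lower and 1 higher. Of the 10, 1 was called lower and 1 higher, and the shares of all genes were 9.7% lower and 13% higher. Shares of all genes within the same GC classes were not computed. The part of the GC trend in the endothelial decrease cannot be told apart from that of the genotype.

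**Figure D4:**
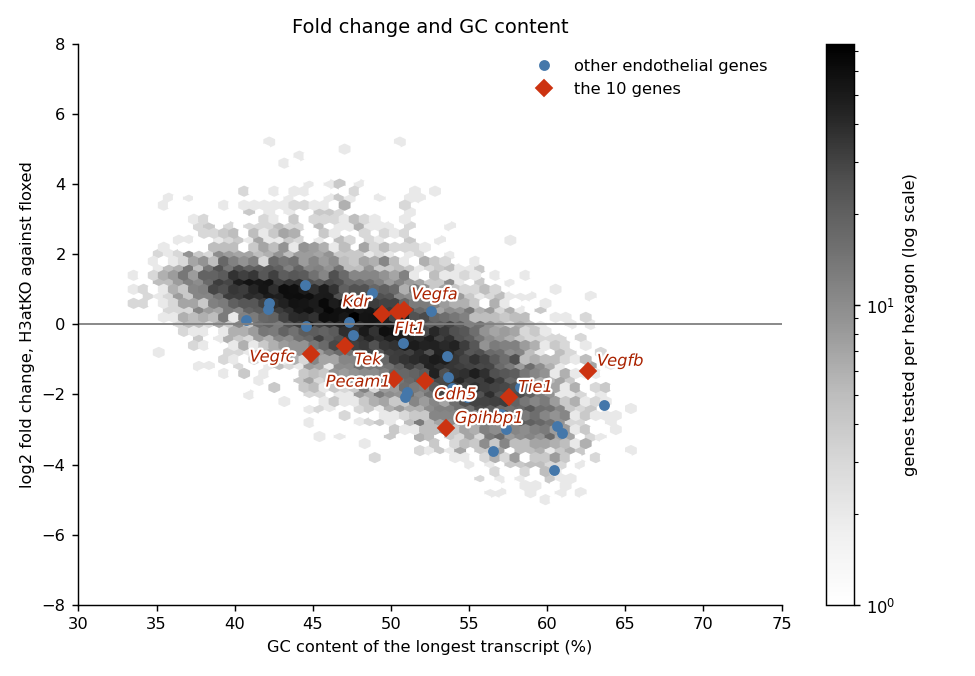
Log2 fold change, H3atKO against floxed, on the vertical axis against the GC content of the longest transcript in percent on the horizontal axis. Grey hexagons count all genes tested, blue points are the 24 other endothelial genes and red diamonds the 10 genes; fold change declines with GC content, and Pecam1, Cdh5 and Gpihbp1 lie below Kdr, Flt1 and Vegfa at GC contents between 49.4% and 53.5%.

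Of 31 other genes of the VEGF, angiopoietin and Notch pathways, 30 were tested (Angpt4 was below the filter), 2 were called higher and 2 lower, against 9.42% and 7.07% of all genes, and the median log2 fold change was -0.35. The replicate block gave 3 called higher and 12 lower, against 24.8% and 28.7% of all genes. Subtraction of the GC trend gave 2 higher and 4 lower, against 5.53% and 3.05%. The 2 lower genes were thrombospondins, secreted matrix proteins that inhibit angiogenesis. Thbs1 had 712, 463 and 208 cpm in floxed and 27.9, 12.5 and 33.5 cpm in H3atKO samples. It was lower by 18.1-fold (log2 fold change -4.18 ± 0.56 SE, adjusted p = 0.0120). Thbs2 had 194, 203 and 234 cpm in floxed and 25.5, 23.9 and 42.2 cpm in H3atKO samples, and was lower by 7.21-fold (log2 fold change -2.85 ± 0.28 SE, adjusted p = 0.00793). Both log2 fold changes were larger in size than those of Pecam1 and Cdh5, a difference that was not tested, and both genes kept their calls with the GC trend subtracted (log2 fold changes -3.99 and -2.91, adjusted p = 0.0154 and 0.00758).

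The 2 genes called higher, of 30 tested and against 9.42% of all genes, were Hif1a and Egln1, which belong to oxygen sensing. Hif1a, the oxygen-regulated subunit of the factor that induces Vegfa under hypoxia, had 64.2, 83.7 and 117 cpm in floxed and 184, 202 and 242 cpm in H3atKO samples. Egln1, the oxygen-dependent hydroxylase that marks HIF proteins for degradation, had 62.5, 60.2 and 56.6 cpm in floxed and 104, 162 and 133 cpm in H3atKO samples. Both were higher in every H3atKO sample, Hif1a by 2.43-fold (log2 fold change 1.28 ± 0.28 SE, adjusted p = 0.0324) and Egln1 by 2.19-fold (log2 fold change 1.13 ± 0.24 SE, adjusted p = 0.0308). With the GC trend subtracted, Hif1a stood at 0.34 on the log2 scale (adjusted p = 0.177) and Egln1 at 2.66 (adjusted p = 0.0197). Other genes of oxygen sensing in the list were not called. Epas1, which encodes HIF-2α, had a log2 fold change of 0.01, Arnt of 0.09, Vhl of 0.40 and Egln3 of 0.33. The coreceptors Nrp1 and Nrp2 had 0.17 and -0.22, also without a call.

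**Figure D5:**
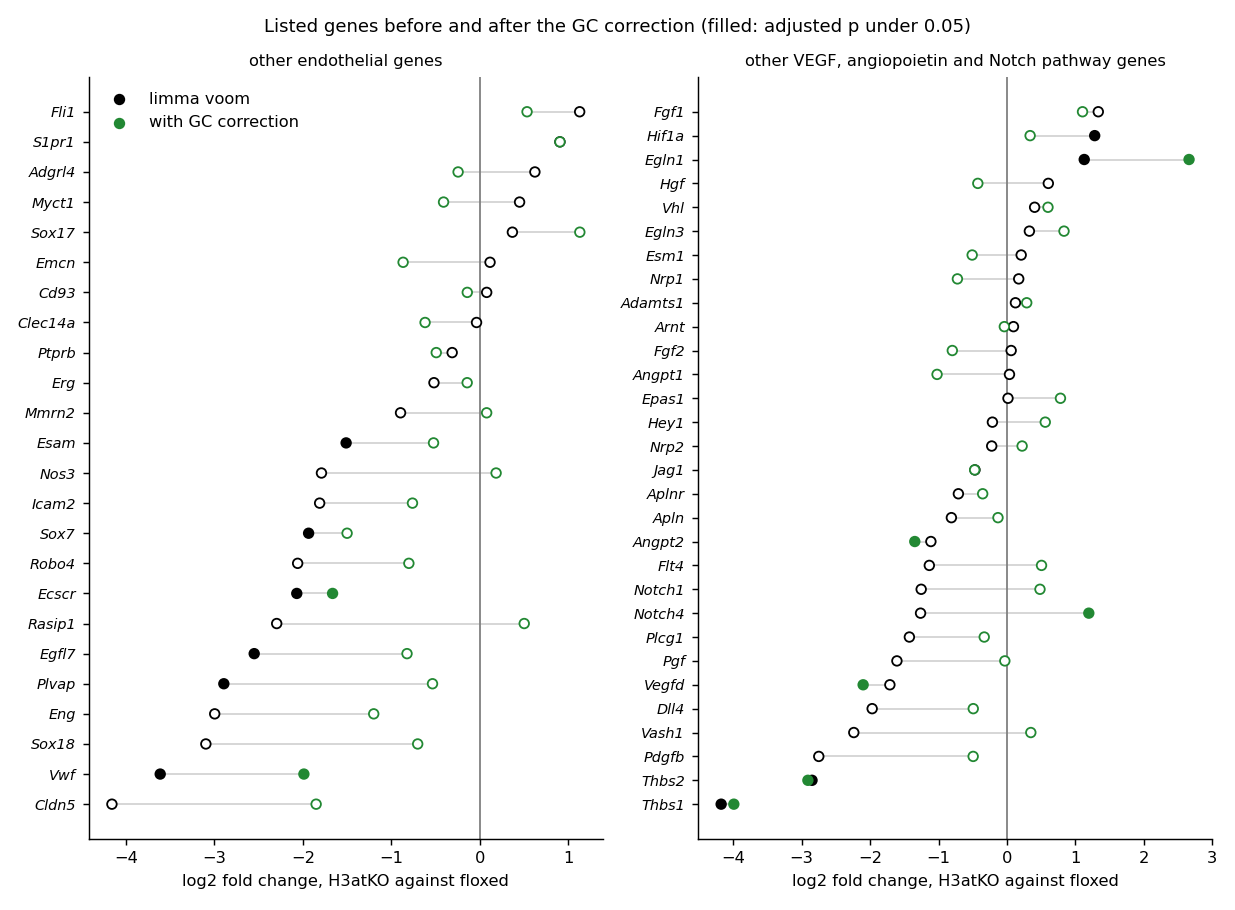
Log2 fold change, H3atKO against floxed, of the 24 other endothelial genes (left) and the 30 tested pathway genes (right), before (black) and after (green) subtraction of the GC trend. Filled symbols have an adjusted p under 0.05; Thbs1 and Thbs2 stay at the far left in both, while Plvap, Egfl7 and Cldn5 move towards 0 and Egln1 moves away from it.

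Of the markers of the cells around the capillaries, 9 of 11 had a negative log2 fold change, against 7855 of all 14967 genes tested. The other 2 were the pericyte genes Rgs5 and Abcc9. Of 11 genes of pericytes and vascular smooth muscle, 5 were called lower (Pdgfrb, Cspg4, Mcam, Tagln and Myh11) and 0 higher, against 7.07% and 9.42% of all genes, and the median log2 fold change was -2.14. The replicate block called 9 lower and 1 higher, against 28.7% and 24.8%, and subtraction of the GC trend left 4 lower and 0 higher, against 3.05% and 5.53%. The gene called higher with the block was Rgs5, a pericyte gene, which stood at 0.98 on the log2 scale (adjusted p = 0.0703, and 0.0114 with the block), and Abcc9, another pericyte gene, stood at 0.51 (adjusted p = 0.284, and 0.0616 with the block). The summed level of the list was 723 to 2238 cpm in floxed and 622 to 1006 cpm in H3atKO samples.

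The counts for other cell types read against the same shares of all genes. These were 7.07% lower and 9.42% higher, 28.7% and 24.8% with the block, and 3.05% and 5.53% with the GC trend subtracted. With both they were 9.7% and 13%. Most of the counts changed with the block or with the GC trend. Of 6 lymphatic endothelial genes 0 were called (block: 2 higher, GC trend subtracted: 0), and their summed level was 32.2 to 175 cpm in floxed and 23.9 to 137 cpm in H3atKO samples. Of 5 red blood cell genes tested, 1 was called lower (block: 3 lower, GC trend subtracted: 0), and the sum over the 7 listed was 73.2 to 268 cpm and 44.6 to 86.1 cpm. Of 9 macrophage genes, 4 were called lower, and 4 with the block. None of the 9 was called once the GC trend was subtracted, alone or with the block, and their median went from -1.60 to -0.51. The macrophage sums were 453 to 2317 cpm and 356 to 610 cpm. Of 8 genes of fibroblasts and progenitors, 2 were called lower (block and GC trend subtracted: 3 each), with sums of 2679 to 9226 cpm and 1539 to 2463 cpm. Of 10 adipocyte genes, 2 were called lower (block: 6 lower, GC trend subtracted: 2 lower and 1 higher). Of 12 lymphocyte genes 1 was called higher (block: 5 higher, GC trend subtracted: 0), with sums of 48.8 to 375 cpm and 84.9 to 554 cpm. Of 10 skeletal muscle genes 0 were called in these fits, although their sum spanned 3.10 to 3586 cpm within H3atKO samples, and of 3 epithelial genes tested 0 were called. None of the markers listed was at 0 in all 6 samples. The part of these cell types in the changes of the 10 genes was not tested.

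The 10 genes did not vary as 1 block across samples. Against the mean log2 cpm of the 7 endothelial genes, Pearson's r over the 6 samples was 0.95 or more for Pecam1, Cdh5, Tie1, Gpihbp1 and Vegfb, 0.75 for Vegfc and 0.54 for Tek. It was 0.06 for Vegfa, -0.15 for Kdr and -0.45 for Flt1. Among 8586 other genes compared, those most like this mean were Htra3, Mgst3, Plin4, Adig and Tbc1d9b (r 0.998 to 0.999), with GC contents of 50.9% to 60.3%. These r values describe 6 samples that fall into the 2 genotypes, and the endothelial genes are part of the mean they are compared with.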

How the data were processed

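IngWAT RNA was sequenced in 3 pools per genotype. The authors made stranded poly(A) libraries, trimmed reads with cutadapt 1.3, aligned them to GRCm38 with STAR 2.4.2a and counted them with HTSeq 0.6.1 (versions per the submitters' processing notes). They deposited counts per Ensembl gene, not normalized. In each file 5 tally lines of reads given to no gene were set apart, and reads with more than 1 place were counted on no gene, which lowers counts of genes with near-identical copies. No annotated gene in the files overlaps any of the 10 genes.

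Symbols, positions and GC contents came from GENCODE M21 (46005 of 46517 identifiers matched). The 14967 genes that reached 1 cpm in 1 sample or more were scaled with TMM (edgeR 4.0.16) and compared with limma 3.58.1 (voom) in R 4.3.3, after the study's methods. The threshold for a call was an adjusted p of 0.05 (Benjamini-Hochberg, over all genes tested), and adjusted p-values in the text come from this fit unless another is named. Log2 values used a pseudocount of 0.5 counts. At these depths 3 counts correspond to 0.0852 to 0.126 cpm of the library size before TMM scaling, for counting error only. For the GC correction, a robust loess curve of each sample's deviations on GC content (span 0.3) was subtracted. As GC content orders the genotypes, this also removes any genotype effect that follows it. Fits were tested on simulated data that held no GC trend and no pairing of samples, so that test does not cover these features.

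Same-numbered samples deviated together (r over genes 0.510, 0.389 and 0.264 for numbers 1, 2 and 3, against -0.295 to -0.052 between different numbers). Deviations were taken from each gene's group mean, so a positive r within numbers pulls the r between different numbers below 0, which is no separate evidence. The GC trend also fell from replicate 1 to 3 in both genotypes, and its part in the shared deviation was not tested. The reported fit does not pair samples, and the number is a block only in the fits that name it. The blocked value is given where it changes the call of a gene described in full or the count of a list. What the number stands for is not given in the sources used here, and p-values measure only the spread between these pools.

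Alternatives were edgeR's quasi-likelihood test, DESeq2 1.42.0, library sizes alone, RLE factors, no filter, at least 10 counts in every sample, quality weights, the block, the GC correction, both, no mitochondrial genes, an adjusted p under 0.1 and each sample left out. A GC and length correction and levels per longest transcript were added after seeing the data. The 10 genes and the lists were chosen with earlier results of these data known. Named besides the 10 were Hdac3, Lpl, Lmf1, Angptl4, the 4 called higher and the 4 called lower with the largest change in each of 2 lists, and the 5 genes most like the endothelial mean. The other genes named were picked after their values were seen.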

Additional observations from a re-analysis of the deposited data

Results flagged for a closer look

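Alignments of reads with more than 1 place, which were tallied apart and counted on no gene, made up 44.7% ± 0.849 (SD, n = 3) of alignments in H3atKO and 31.0% ± 3.68 (SD, n = 3) in floxed samples. They are outside the counts that all comparisons used, and their part in the values of the 10 genes was not tested.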

How the results depend on the processing

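The 10 genes gave 3 calls lower and 0 higher. Lower calls numbered 7 with library sizes alone, with sample quality weights and with the replicate block, and 5 with block and GC correction, which also gave 1 call higher. Leaving out 1 sample gave 0 to 5 lower calls, and the 5 came without floxed replicate 3. Of the 24 other endothelial genes 6 were called, but 15 by edgeR's test, 16 by DESeq2 and with library sizes alone, 11 with at least 10 counts in every sample, 19 with quality weights, 17 with the block, 2 with either GC correction, 15 at an adjusted p under 0.1 and 0 to 16 without 1 sample. Of the 30 pathway genes 4 were called, but 10 by edgeR's test, 15 by DESeq2, 17 with library sizes alone, 9 with at least 10 counts, 16 with quality weights, 15 with the block, 7 with block and GC correction, 9 at an adjusted p under 0.1 and 0 to 14 without 1 sample. Library sizes alone moved the median log2 fold change of all genes from -0.09 to -0.94 and gave -0.55 for Kdr, -0.49 for Flt1 and -0.45 for Vegfa, all above that median. For Vegfb the GC correction gave 1.31, block and GC correction 1.41 and the GC and length correction 1.21. Relative to Pecam1 and Cdh5, 3 genes were higher in every H3atKO sample, and 5 with the GC correction, where Tie1 stood at 0.88, Vegfb at 2.44 and Vegfc at -0.29. The same count was 5 by the same-numbered pairs, and 3 to 5 without 1 sample, where the difference of Vegfb ranged from -0.13 to 0.56. The cause of these changes was not tested. Over all 14967 genes tested, calls in both directions numbered 2468 in the reported fit, 4665 by edgeR's test and 6400 by DESeq2. They numbered 5973 with library sizes alone, 8443 with quality weights and 8007 with the block. The GC correction gave 1284, the GC and length correction 1318, and block and GC correction 3405. At least 10 counts gave 3439 of 12466 genes. Leaving out 1 sample gave from 1 (floxed replicate 2) to 6557 (floxed replicate 3). The counts of the lists, which also join both directions, read against these. With 3 pools per genotype and calls that depend on single pools, a missing call does not show that a gene kept its level. In every sample 9 of the 10 genes had at least 62 counts, and Vegfc had 42 to 233.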
